A study of Rattus norvegicus with 4 samples.

Results

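The whole choroid plexus of female rats was compared with that of male rats over 1884 genes, out of 32883 Ensembl gene IDs in the files. The members were taken from 1998 named genes at the top of the study's list of genes transcribed in the male choroid plexus, and were kept where both libraries held at least 100 expected counts and an effective length of at least 200 bases, effective length being the stretch of a transcript in which a sequenced fragment can start. Of the 114 genes left out, 97 missed the length alone, 17 missed both limits and 0 missed the count alone. The list was cut by level in the male library, where its lowest gene had 57.8 transcripts in the unit TPM, a level per transcript length scaled so that all libraries have an equal sum, with no such limit in the female library, so that a gene low in the male and high in the female could not be a member. The members held 77.7% of the TPM in the male library and 79.0% in the female library.

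The study sequenced RNA of rat choroid plexus to map its transport proteins, and also of FACS-sorted choroid plexus epithelial cells and of kidney proximal tubules. All rats were Sprague Dawley animals aged 9 weeks. The FACS library came from the choroid plexus of 10 males, digested with collagenase before sorting. The tissue from the lateral and the fourth ventricles of 5 males made up 1 library and that of 5 females the other, so each sex had 1 pooled library and a difference between them has no replicate check. No p-value is given, the spread between animals is unknown, and sex cannot be told apart from anything else that differed between the pools, such as dissection or library preparation.

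The choroid plexus is a sheet of secretory epithelium around a core of fenestrated vessels, fibroblasts and immune cells, and it hangs into the ventricles of the brain. Its epithelium moves ions and water from blood to ventricle to form the cerebrospinal fluid, and secretes carrier proteins such as transthyretin into it. The core holds macrophages that present antigen, and blood stays in its vessels where the tissue is not flushed. In whole tissue, fewer cells of a type and less RNA per cell cannot be told apart.

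Expected counts summed to 28324976 in the male and 25376480 in the female library. Mitochondrially encoded genes took 5.34% and 4.32% of them. Names were found for 0 of 5 sex-linked marker genes looked for, so the labels were read through IDs without a name. Of these, 4 had 100 or more counts in each of the 3 libraries from male rats and 0 in the female library, such as ENSRNOG00000057231 with 2408 counts and ENSRNOG00000060048 with 1071 counts in the male choroid plexus. A single unnamed ID, ENSRNOG00000051257, had 936 counts in the female library and 0 in those 3. These IDs were chosen by their values and do not show which chromosome they come from.

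The promoters of genes at the ends of the comparison are shown first, as the 250 bases before the annotated start in the rat build GRCr8 of RefSeq, read on the coding strand. They are printed because GLYCAM1 was the member furthest on the female side, and because IFI27 and the alpha globins were among those furthest on the male side.
GLYCAM1, chr7:136561300-136561549, minus strand: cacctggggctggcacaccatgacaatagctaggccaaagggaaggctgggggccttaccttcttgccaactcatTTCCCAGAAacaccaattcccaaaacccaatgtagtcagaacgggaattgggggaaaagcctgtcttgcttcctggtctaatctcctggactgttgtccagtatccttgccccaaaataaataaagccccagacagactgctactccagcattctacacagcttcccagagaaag
IFI27, chr6:128355062-128355311, plus strand: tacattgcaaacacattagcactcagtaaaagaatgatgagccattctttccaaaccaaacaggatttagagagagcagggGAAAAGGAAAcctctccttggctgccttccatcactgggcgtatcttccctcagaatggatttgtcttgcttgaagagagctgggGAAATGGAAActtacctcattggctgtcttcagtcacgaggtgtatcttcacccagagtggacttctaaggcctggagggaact
HBA-A1, chr10:15842581-15842830, minus strand: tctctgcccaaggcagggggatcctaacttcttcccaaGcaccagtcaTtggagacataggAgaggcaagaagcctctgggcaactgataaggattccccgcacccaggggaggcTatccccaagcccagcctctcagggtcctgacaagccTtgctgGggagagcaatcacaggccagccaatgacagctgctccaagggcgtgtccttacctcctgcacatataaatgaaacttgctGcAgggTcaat
HBA-A2, chr10:15829139-15829388, minus strand: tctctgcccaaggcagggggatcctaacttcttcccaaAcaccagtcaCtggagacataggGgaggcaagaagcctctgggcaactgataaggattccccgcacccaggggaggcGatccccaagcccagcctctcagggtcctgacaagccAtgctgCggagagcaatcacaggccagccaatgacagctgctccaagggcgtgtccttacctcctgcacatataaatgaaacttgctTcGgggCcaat
In GLYCAM1 the capitals mark the only match to TTCNNNGAA, the pattern bound by STAT factors, starting 175 bases before the gene. That pattern reads the same on both strands, and 7.67% of the 33469 promoter windows held it. In IFI27 the capitals mark 2 matches to the core of the interferon-stimulated response element, a pair of GAAA runs with any 2 bases between them, which was searched on both strands and stood in 3.41% of all windows. Of 7 interferon-inducible members, 6 had a window in the table and 5 of these windows held it. In the alpha globins the capitals mark the 9 positions at which their windows differ, with 241 of 250 bases the same (96.4%), and TATAAA started 28 bases before the gene in both. TATAAA, searched on both strands, was in 12.9% of all windows and in 3 of the 4 windows of haemoglobin genes. A match of letters is a description and shows no binding, and the same genes on the files' own build were not placed here.

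Before the sexes were compared gene by gene, the ratio of female to male TPM was seen to depend on gene length. A pseudocount of 1 was added to each TPM before the log2 was taken, and ratios of low genes are thereby understated. Over the members the median log2 ratio was -0.11, with 1435 genes below 0 and 448 above. This lean depended on the scaling, since the median was 0.015 in CPM, a count scaled to the library total without regard to length, and -0.016 when the 10 highest genes of each library were left out. In the shortest quintile of members, with effective lengths of 202 to 660 bases, the median was 0.02, and it went down through -0.05, -0.11 and -0.15 to -0.23 in the longest quintile, of 2407 to 14440 bases. Across members the Spearman correlation of length with the ratio was -0.51, a description over genes of the same pair of libraries. The deposited effective lengths also differed, being 3.4 bases longer in the male library for 16757 of 20483 genes over 500 bases (81.8%). What set this slope was not tested. The log2 ratios of single genes and lists below are therefore given after the median of the gene's own quintile was taken off, and are called corrected log2 ratios, positive where the female library was higher.

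**Figure D1:**
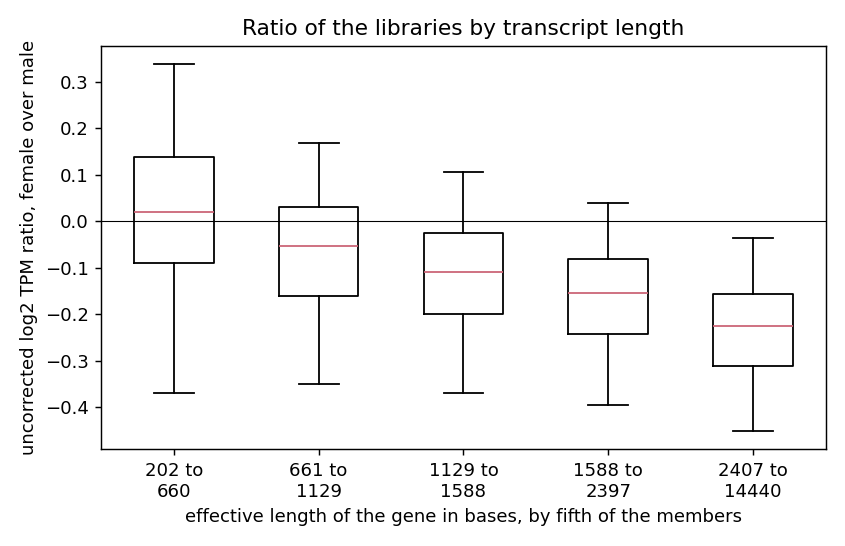
Each box gives the uncorrected log2 ratio of female to male TPM (vertical axis) for 1 quintile of the 1884 members by effective length in bases (horizontal axis), with the median, the quartiles and whiskers from the 5th to the 95th percentile. The medians step down from 0.02 in the shortest quintile to -0.23 in the longest.

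The transcriptomes of the male and female choroid plexus were close for nearly all members. After correction, 1859 of 1884 genes (98.7%) lay within 1.5-fold of equal, and 25 (1.33%) lay past it, against 1.04% of all 10606 genes that met the same limits of count and length. Of the 25, 2 (0.106% of members) were higher in the female library, against 0.368% of all genes within the limits, and 23 (1.22%) in the male library, against 0.669%. With 1 median for all members in place of those by quintile, the split was 5 and 19. From the shortest to the longest quintile, 14 of 378, 7 of 376, 3 of 376, 1 of 377 and 0 of 377 members were called. The SD of the corrected ratios was 0.30 in the shortest quintile and 0.13 in the longest. The correction takes off the median of each quintile and leaves this unequal spread, so calls are not comparable across lengths. Among the 8722 genes that met the limits without being members, 83 (0.952%) were called, 36 (0.413%) higher in the female and 47 (0.539%) in the male, so the split among members leaned further to the side on which the list was chosen. Past 2-fold there were 9 members (0.478%, against 0.170% of all genes within the limits), 2 higher in the female (0.106%, against 0.0754%) and 7 in the male (0.372%, against 0.0943%). At a lower limit, of 0.32 on the log2 scale, 111 members were called (5.89%, against 7.97% of all genes within the limits), 40 higher in the female (2.12%, against 3.19%) and 71 in the male (3.77%, against 4.78%).

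The corrected ratios had an SD of 0.19 across members, and 90% of them lay between the 5th and 95th percentiles of -0.27 and 0.23. Exact 95% binomial intervals on the counts had a median width of 0.06 to either side. These cover counting error only, and are too narrow even for that where reads were copied in PCR. They also leave out the error of dividing shared reads between IDs. Among the 92 members with fewer than 1000 counts in the male library the SD was 0.25 and the interval reached 0.14 to either side, while among the 299 with 10000 or more the SD was 0.20 and the interval reached 0.03. The called gene nearest to the 1.5-fold limit, which is 0.58 on the log2 scale, was MT-ND5 on the male side, with -0.61, and the nearest that was not called was RTL6, with 73.6 TPM in male and 49.6 TPM in female tissue and a ratio of -0.58. On the female side RPS19L2 was the nearest called gene, with 1.05, and LOC103694903 the nearest not called, with 0.56.

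**Figure D2:**
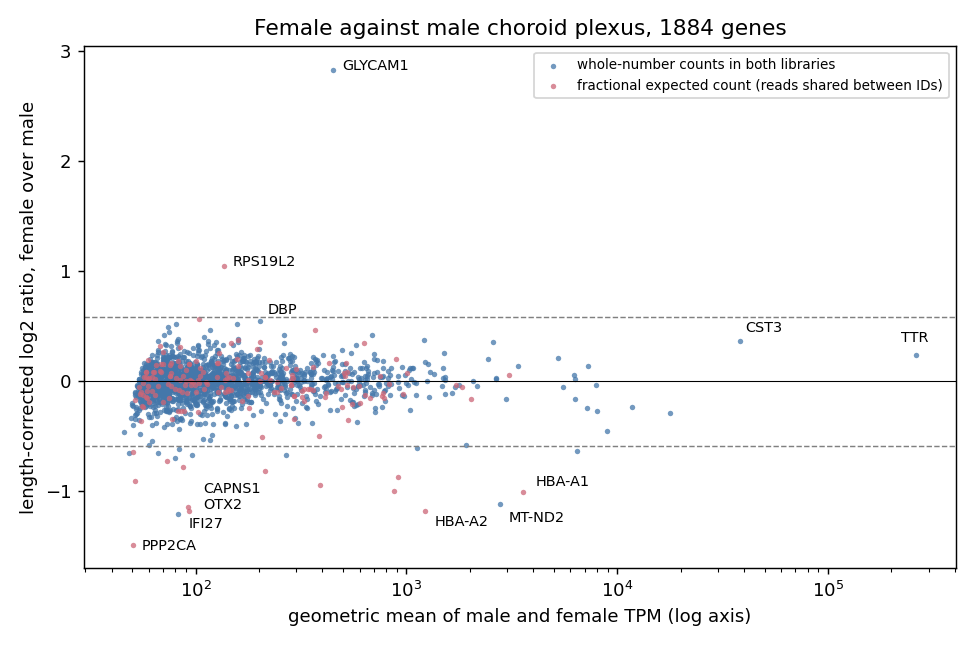
Each point is 1 of the 1884 members, with the geometric mean of its male and female TPM on a log horizontal axis and the corrected log2 ratio of female to male on the vertical axis, dashed lines at 1.5-fold and genes with fractional counts in red. GLYCAM1 stands alone at 2.83, the called genes lie mostly below the lower line, and TTR, the highest gene, lies inside the limits at 0.24.

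The gene furthest to the female side was GLYCAM1 (ENSRNOG00000036826), which encodes a secreted mucin-like glycoprotein known as a ligand of L-selectin. It had 166 TPM from 1343 counts in the male library and 1206 TPM from 9489 counts in the female library. The sorted male epithelial cells had 310.2 TPM, 1.87 times the whole male tissue, and the proximal tubule was listed at 0. The female library was thus the highest of the 4, at 7.26 times the male choroid plexus in uncorrected TPM. The corrected log2 ratio was 2.83 (95% counting interval 2.75 to 2.92), all its counts were whole numbers, and it stayed between 2.80 and 2.97 under every other processing tried. Beside it, the summed TPM of the 7 endothelial and mural genes was 988 in the male and 866 in the female library. For the 10 genes of the antigen presentation list, LYZ2 among them, the sums were 2469 and 1944. The part of these lists in the GLYCAM1 value was not tested. In the FACS library the class II gene CD74 stood at 7.42 times the whole male tissue in TPM. The macrophage gene LYZ2 stood at 4.14 times and HBA-A1 at 0.176 times. Which cells of that library held GLYCAM1 was not tested.

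The other gene called on the female side was 1 of the IDs named RPS19L2 (ENSRNOG00000037897), a copy of the gene for a protein of the small ribosomal subunit. It had 93.8 TPM in the male, 197 TPM in the female and 602 TPM in the FACS library, a corrected log2 ratio of 1.05 (0.90 to 1.19). Its counts were fractions, as RSEM gives where reads match several genes. A second ID of the same name, too short to be a member, had 737 and 754 TPM in the male and female libraries. Together the pair had 830.3 and 951 TPM, so that the sum differed far less than the single ID.

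Shared reads touched many of the calls. Of the members, 182 (9.66%) had a fractional count in at least 1 of the pair of libraries, and 14 of the 25 called genes were among them. Of the members with fractional counts 7.69% were called, and of those with whole counts 0.646%. The corrected ratios had an SD of 0.31 in the former and 0.17 in the latter. Whole numbers do not show that no reads were shared, since ATP5PB, a subunit of ATP synthase, and LOC100911417 each had exactly 4471 counts in the male and 3738 in the female library.

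**Figure D3:**
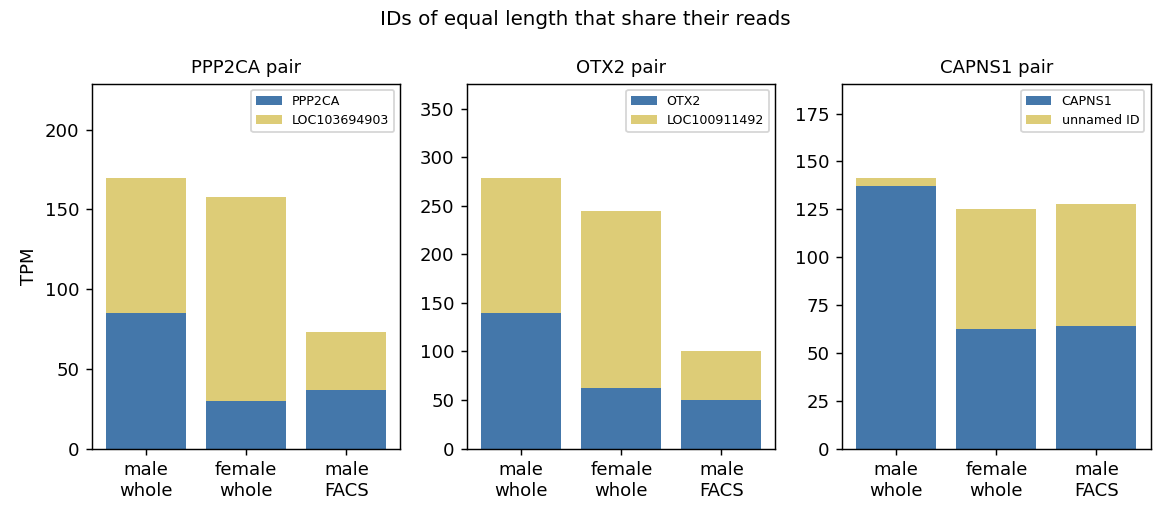
For the 3 pairs of near-identical IDs that held a called member, stacked bars give, on a linear axis, the TPM of both IDs in the male, female and FACS libraries, from 0. PPP2CA and OTX2 are divided evenly with their partners in the male and FACS libraries and unevenly in the female library, and CAPNS1 evenly in the female and FACS libraries and unevenly in the male library.

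PPP2CA (ENSRNOG00000005389), the catalytic subunit of protein phosphatase 2A, was the member furthest to the male side. It had 84.7 TPM from 1366 counts in the male and 30.1 TPM from 475 counts in the female library, a corrected log2 ratio of -1.48 (-1.64 to -1.33). LOC103694903 had the same effective length in all 4 libraries and exactly the same 84.7 TPM in the male library, but 128 TPM in the female library. In the FACS library both had 36.5 TPM. Summed, the pair had 169 TPM in male and 158 TPM in female tissue, a corrected ratio of -0.12 (-0.20 to -0.05). The counts were thus divided evenly between these IDs in the male and FACS libraries and unevenly in the female library, while their sum was within 1.5-fold. A list of 14 members held subunits and regulators of protein phosphatases, mostly 1 and 2A, with PPP3R1, PPP5C and PPP6R1 from other phosphatases. PPP2CA was the only one called, beside 1.33% of all members, and the list's median was 0.03.

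OTX2, a homeobox factor needed to form the choroid plexus, behaved the same way. It had 139 TPM in male and 61.9 TPM in female tissue, a ratio of -1.17 (-1.29 to -1.06), while LOC100911492 had the same 139 TPM in the former and 183 TPM in the latter. The sum was 278 and 245 TPM, with a ratio of -0.20 (-0.27 to -0.14). CAPNS1, the small subunit of the calpain proteases, had 137 TPM in male and 62.5 TPM in female tissue, a ratio of -1.14. Its unnamed partner had 3.99 TPM and 62.5 TPM, and the sum of 141 and 125 TPM gave -0.20 (-0.30 to -0.09). In this pair it was the male library that gave nearly all reads to 1 ID. After pairs were summed, an alternative added once the values had been seen, 22 members were called.

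Haemoglobin genes, which mark red blood cells and their precursors, were lower in the female library by about the same amount. All 4 members of the list were called, with a median corrected ratio of -0.97. All 4 had fractional counts, and of all members with such counts 7.69% were called. HBA-A1 had 5046 TPM in the male, 2552 TPM in the female and 887 TPM in the FACS library, with a ratio of -1.004. HBA-A2 had 1839, 824 and 406 TPM in the same order, with a ratio of -1.18. For the beta globins the ratio was -0.87 for HBB and -0.94 for HBB-BS. Summed over the 4 genes, the level was 8648 TPM in the male, 4337 TPM in the female and 1659 TPM in the FACS library. A further called ID with fractional counts, LOC100134871, which is in no list and not in this sum, had 1229 and 624 TPM and a ratio of -0.998. Whether it shares reads with the 4 genes was not tested.

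Among genes of immune cells, those of the class II antigen pathway were lower in the female library. CD74, the invariant chain of class II molecules, had 345 TPM in male and 209 TPM in female tissue, a corrected log2 ratio of -0.67 (-0.72 to -0.61). RT1-DA, a rat class II alpha chain, had 104 and 61.6 TPM, with -0.69 (-0.79 to -0.59). The FACS library was highest for both, with 2556 TPM of CD74 and 649.5 TPM of RT1-DA. These were the 2 called of 10 genes in the antigen presentation list, beside 1.33% of all members. Of the 10, 8 were below 0, and the median was -0.20. The list also counts LYZ2, which does not present antigen. LYZ2, the lysozyme of macrophages, had 468 TPM in the male, 320 TPM in the female and 1939 TPM in the FACS library and a ratio of -0.50 from fractional counts. B2M, the light chain of class I molecules, had a ratio of -0.11 and TAPBP, which loads peptide onto class I, 0.03. Of the remaining genes of the list, RT1-CE7 had -0.36 from fractional counts, ERAP1 -0.22, RT1-S3 -0.17, RT1-A1 -0.10 and PSME1 0.02. Lower ratios in this list were thus not confined to the class II genes.

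The 7 interferon-inducible members were all below 0, with a median of -0.25, and 1 was called, beside 1.33% of all members. That gene was IFI27, which encodes a small protein of the mitochondrial membrane induced by type I interferon. It had 125 TPM from 1607 counts in the male, 54.4 TPM from 685 counts in the female and 150.2 TPM in the FACS library, a ratio of -1.20 (-1.33 to -1.07). The antiviral membrane protein IFITM3 had -0.34, BST2, which tethers budding virus, -0.30 and LY6E -0.25. IFITM2 stood at -0.01, close to equal. No member of it had fractional counts.

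**Figure D4:**
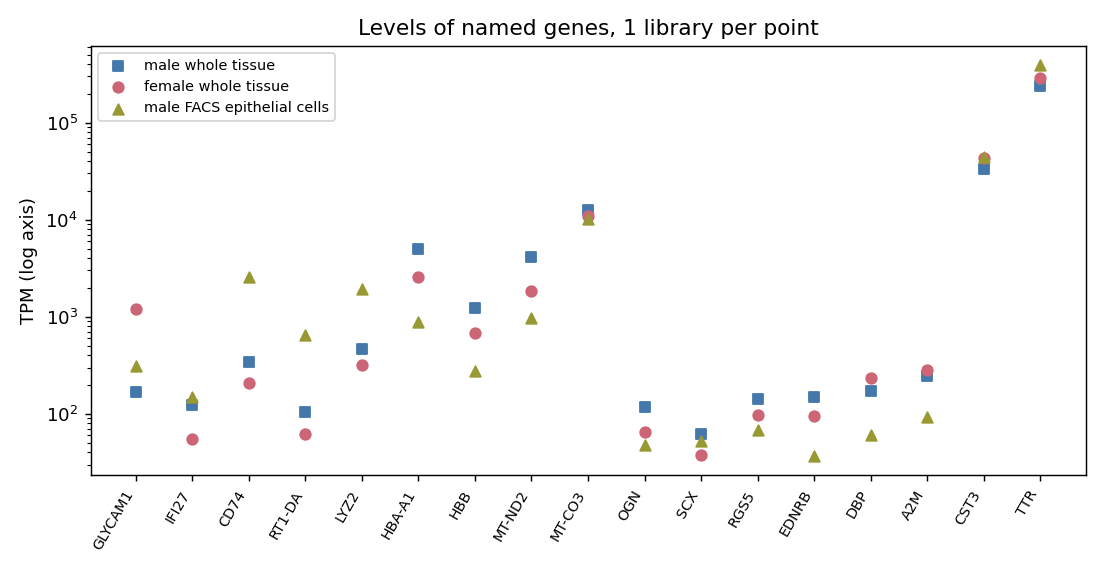
Levels of named genes in TPM, on a log axis, in the male, female and FACS choroid plexus libraries, 1 point a library. HBA-A1 and HBB lie highest in the male and lowest in the FACS library, CD74, RT1-DA and LYZ2 highest in the FACS library, and GLYCAM1 highest in the female library.

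Transcripts encoded by the mitochondrial genome were lower in the female library to unequal degrees. Of 13 such genes 10 were members, and all 10 were below 0, with a median of -0.37. Of the 10, 3 were called, beside 1.33% of all members. MT-ND2, a subunit of complex I, had 4159 TPM in the male, 1856 TPM in the female and 964 TPM in the FACS library, a ratio of -1.11 (-1.13 to -1.09). MT-ND1 had 8170 TPM in male and 5091 TPM in female tissue, with -0.63, and MT-ND5 had 1444 and 878 TPM, with -0.61. Both lay close to the limit, and each fell under it in 1 alternative, to -0.57 for MT-ND1 with 1 median for all members and to -0.57 for MT-ND5 with no minimum length. The cytochrome c oxidase subunit MT-CO3 was the closest to equal, with 12643 and 10886 TPM and -0.24. The ratio of MT-ND2 to MT-CO3 within a library went from 0.329 in the male to 0.170 in the female and 0.0942 in the FACS library, so these genes did not change in 1 proportion. In sum they held 77275 TPM in male and 58050 TPM in female tissue.

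The nuclear genes of oxidative phosphorylation did not share this direction. Their 62 members had a median of 0.04, with 40 above 0, 22 below and 0 called, beside 1.33% of all members. The highest were UQCRQ, a subunit of complex III, with 137 TPM in male and 182 TPM in female tissue and a ratio of 0.52, and UQCR11 of the same complex, with 0.42. Of the subunits of cytochrome c oxidase, COX6A1 had 0.38 and COX8A had 0.36. All of these lay within 1.5-fold, while the share of mitochondrially encoded counts was lower in the female library. UQCR11, COX6A1 and COX8A had effective lengths of 236, 277 and 223 bases in the male library, toward the short end of the shortest quintile. Any slope with length inside that quintile stays in their ratios.

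**Figure D5:**
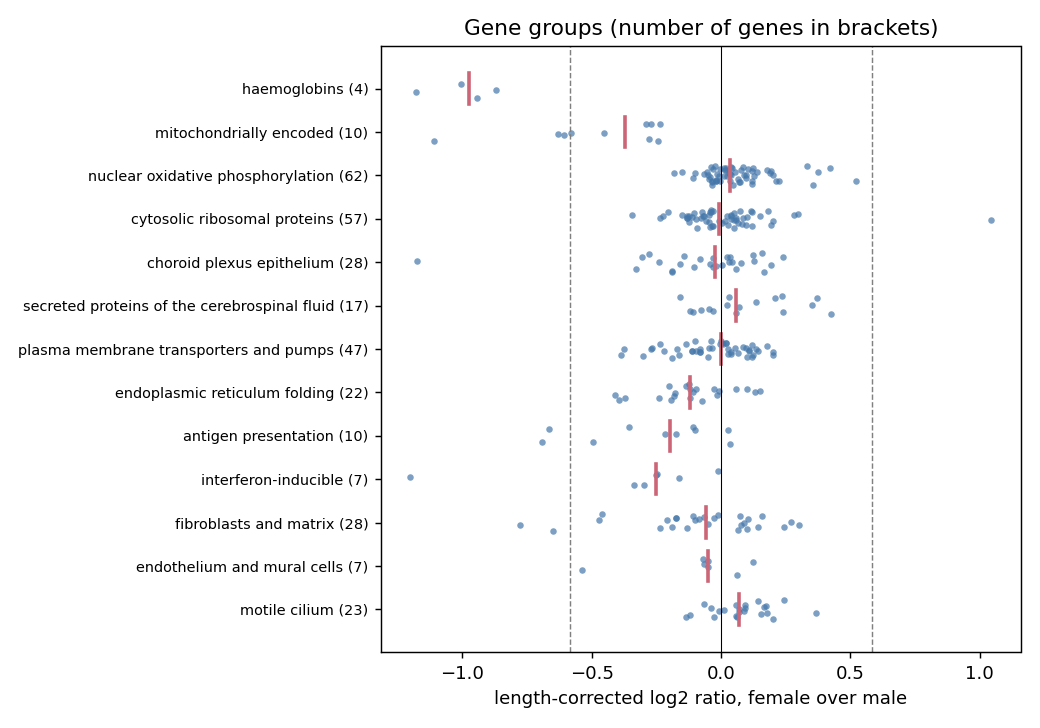
Corrected log2 ratios of female to male (horizontal axis) of single members, as points, by list (vertical axis), with a bar at each list's median and dashed lines at 1.5-fold. The haemoglobins, with a median of -0.97, and the mitochondrially encoded genes, with -0.37, lie left of 0, and the epithelial, transporter and ribosomal lists are centred near it.

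Relative to other members of like length, the epithelial programme differed little. A shift shared by most members of a quintile is taken off by the correction and would not be seen here. Among 28 members of the epithelial list, 13 were above 0 and 15 below, with a median of -0.03. The only gene called, beside 1.33% of all members, was OTX2, whose sum with its partner was within 1.5-fold. TTR, which carries thyroid hormone and retinol-binding protein and defines the tissue, had 238565 TPM in male and 285892 TPM in female tissue, a ratio of 0.24. It took 8.85% of the male counts and 11.5% of the female counts. The inward rectifier KCNJ13 had -0.15, the bicarbonate transporter SLC4A5 had -0.08, the water channel AQP1 had 0.04, the anti-ageing protein klotho, KL, had 0.02, and the folate receptor FOLR1 had 0.00. The lowest beside OTX2 were the coagulation factor F5, with -0.33, and the channel TRPM3, with -0.31.

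Proteins secreted into the cerebrospinal fluid had a median of 0.06 over 17 members, with 11 above 0. Of the 17, 0 were called, beside 1.33% of all members. The protease inhibitor A2M had the highest ratio, 0.42, followed by cystatin C, CST3, with 33410 TPM in male and 43821 TPM in female tissue and a ratio of 0.37. Apolipoprotein E had 236 and 290.2 TPM, with 0.35, and 1522 TPM in the FACS library. ENPP2, which makes lysophosphatidic acid, was the lowest, with -0.16.

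The transporters and pumps, which the study had set out to map, lay close together after correction. Their summed uncorrected TPM was 14393 in the male and 12990 in the female library. Over 47 members the median was 0.00, with 24 above 0 and 23 below. Of the 47, 0 were called, beside 1.33% of all members, a share at which a list of this size holds few or none. The range ran from -0.39 for PDZD11, a scaffold protein, to 0.20 for SLC22A17. The Na+/K+-ATPase beta subunit ATP1B1 had -0.04, and the cotransporter SLC12A2, through which ions enter the cerebrospinal fluid, had 0.05. The 6 channels ran from -0.31 to 0.08. Of the 5 G protein-coupled receptors the endothelin receptor EDNRB stood lowest, with 150.4 TPM in male and 95.9 TPM in female tissue and -0.49, while the serotonin receptor HTR2C had -0.03. Of the receptor tyrosine kinases FGFR1 and FGFR2 each had 0.24. The study drew these lists from the same samples, so they are no independent choice. Its lists also go lower in level, and only their genes above the male cut of 57.8 TPM could be members here.

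Genes of the stroma were divided. Of 28 fibroblast and matrix members the median was -0.06 and 2 were called, beside 1.33% of all members. OGN, a small leucine-rich proteoglycan, had 117 TPM in male and 65.4 TPM in female tissue, a ratio of -0.78 from fractional counts. SCX, a transcription factor of tendon and ligament cells, had 62.0 and 37.7 TPM, with -0.65. The complement component C7 had -0.47 and IGFBP5 -0.46, while the calcification inhibitor MGP had 0.09 and the Wnt antagonist SFRP1 0.30. Of the 7 endothelial and mural members the pericyte gene RGS5 was lowest, with 140.4 and 97.9 TPM and -0.54, and PLVAP, which forms the diaphragms of fenestrated vessels, had -0.05.

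Genes that fold proteins in the endoplasmic reticulum lay below 0 in 18 of 22 members, with a median of -0.12. Of the 22, 0 were called, beside 1.33% of all members, a share at which 0 is likely in a list of this size. The chaperone HSPA5 had 702 TPM in male and 488 TPM in female tissue, a ratio of -0.37, DNAJC3 had -0.41 and CALR had -0.24. XBP1, the transcription factor of the unfolded protein response, had -0.39. The 27 cytosolic and mitochondrial chaperones had a median of -0.05. Genes of the motile cilium leaned the other way, with 17 of 23 members above 0, a median of 0.07 and again 0 called. The dynein light chain DYNLRB2 was highest with 0.37. Its effective length in the male library was 293 bases, toward the short end of the shortest quintile. The clock output factor DBP, whose level swings over the day in many tissues, had 174 TPM in the male, 236 TPM in the female and 59.8 TPM in the FACS library, a ratio of 0.55 (0.50 to 0.60). NR1D1, which encodes the clock repressor REV-ERB alpha, had 0.17. USP2, the last of the 3 members of the clock output list, went the other way. It had 71.6 TPM in male and 52.8 TPM in female tissue, a ratio of -0.32 (-0.41 to -0.24). The hour at which each pool was taken is not given in the sources used here.

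The rest of the genes at the female end were within 1.5-fold. They comprised RLBP1, which binds retinaldehyde, with 71.2 TPM in male and 92.3 TPM in female tissue and a ratio of 0.53, and the mitochondrial proteins UQCC2, with 0.47, and GLRX5, with 0.45. The effective length of UQCC2 in the male library was 225 bases, at the short end of the shortest quintile. RGD1310587 had 0.50. DDX3X, an X-linked RNA helicase, had 151 and 166 TPM and a ratio of 0.36, and was named after its value was seen. At the male end, the called IVNS1ABP, an actin-binding kelch protein, had 83.0 and 53.3 TPM and -0.65, but its effective length differed between the libraries, 598 bases in the male and 703 in the female, and in CPM the ratio was -0.41. AABR07064873.1, with lengths of 1713 and 2388 bases, had -0.64, and -0.18 in CPM. The other called IDs without a gene symbol of known function were LOC102555453, with -0.91, LOC100360413, with -0.81, LOC100911730, with -0.72, AABR07007032.1, with -0.67, and AABR07021547.1, with -0.61.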

How the data were processed

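Whole choroid plexus of male and of female rats was represented by 1 pooled library each, and values of the FACS and proximal tubule libraries were set beside them without entering a fit. Per the labels and the methods, the authors mapped reads with STAR (version 2.7.2a) and quantified genes with RSEM (version 1.3.3), on build Rnor_6.0 and the Ensembl annotation of release 103. Trimmomatic is named in the methods for the species comparison, which took in the male library. Whether the reads behind the deposited files were trimmed, and their strandedness, is not given in the sources used here, so overlapping and antisense genes cannot be told apart. The deposited values are, per gene ID, an expected count, which need not be whole, a TPM, scaled by the authors to a common total, and the effective length (bases). FPKM values were deposited too and left aside.

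Gene names came from the study's lists, which name 2452 IDs, since 0 IDs matched the RefSeq table by Ensembl ID. The list of the male choroid plexus was held in part only, so no set test was run on it. Members had at least 100 expected counts and an effective length of at least 200 bases in both libraries. Ratios were log2 of TPM plus 1, less the median of the quintile of effective length, and a gene was called past 1.5-fold. Exact binomial intervals at 95% were computed on rounded expected counts. IDs were taken as near-identical where effective lengths were equal in all 4 libraries and expected counts of at least 20 were equal, within 0.005, in at least 2 libraries. The same tolerance decided whether a count was whole. Python 3.11.15, numpy 2.4.6, pandas 2.3.3, scipy 1.17.1 and matplotlib 3.10.9 were used, and the steps were tested on simulated data. With 1 library per sex, p-values were not computed.

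The members and the 28 gene lists were chosen with earlier results of these data known. Named were TTR, GLYCAM1 and PPP2CA, the 10 members furthest to each side, and of each list every called member and otherwise up to 4 with the highest male TPM. Not all of these are printed, and other genes named, among them the ends of lists, were chosen after their values were seen. Alternatives varied the pseudocount, the limits of count and length, the length correction, the fold, the scale (CPM), the highest genes and the mitochondrially encoded genes. The sum of near-identical IDs and the restriction to whole-number counts were added after the data were seen.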

Additional observations from a re-analysis of the deposited data

How the results depend on the processing

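Each sex had 1 library, so no replicate could be left out. No paired analysis was possible because each group holds a single library. There were 16 alternatives, 14 of them planned. Under those that gave a gene a ratio of its own, between 12 and 14 for each gene, 25 of 25 called genes kept their sign and 16 stayed past 1.5-fold. PPP2CA, OTX2 and CAPNS1 did not once near-identical IDs were summed, IVNS1ABP and AABR07064873.1 did not in CPM, IVNS1ABP, MT-ND1, AABR07007032.1 and AABR07021547.1 did not with 1 median for all members, and MT-ND5 did not with no minimum length. The median uncorrected log2 ratio, -0.11, was -0.016 without the 10 highest genes of each library and 0.015 in CPM, so the overall shift depends on the scaling. With a lower limit, of 0.32 on the log2 scale, 111 members were called, 40 higher in the female and 71 in the male. With a fold of 2 there were 9, with 7 higher in the male. With whole-number counts alone there were 12, with 1 higher in the female and 11 in the male. Those higher in the female, 2 as reported, were 1 with a minimum of 1000 counts, 9 with no minimum length and 5 with 1 median for all members. A minimum of 1000 counts left 17 called members, and the lack of replicates limits every value.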

Other observations

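Further gene groups were close to equal in the male and female libraries. The 26 proteasome members had a median corrected log2 ratio of 0.04, with 20 above 0 and 0 called. The 57 ribosomal protein members had a median of -0.01, and 1 was called, the copy RPS19L2. The 5 glucocorticoid-responsive members were all below 0, with a median of -0.10 and 0 called. Members of bone morphogenetic protein signalling had a median of 0.00 over 7 genes, p53 targets 0.05 over 5 genes, and cholesterol synthesis 0.08 over 7 genes, where SREBF1, the transcription factor of lipid synthesis, was highest with 0.33. The 10 genes of fatty acid desaturation and elongation had a median of -0.07, with the elongase ELOVL7 lowest at -0.37. The 5 histone members had a median of 0.21, but 2 of them had fractional counts and the 3 with whole counts had a median of -0.06. Markers of neural tissue had a median of 0.06 over 5 genes and the 2 adipocyte genes had -0.12. None of these lists apart from the ribosomal proteins held a called gene. Of all members 1.33% were called, and at that share lists this short often hold none.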
